A study of Homo sapiens with 12 samples.

Results

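A549, a human lung adenocarcinoma line in which KEAP1 is mutated and the oxidative stress factor NRF2 is active, was profiled by RNA sequencing after NR0B1 had been raised or lowered. The subject here is the difference between these responses, gene by gene. On the log2 scale it was taken as the change from the overexpression control to NR0B1 overexpression minus the change from the knockdown control to NR0B1 knockdown. All 12 libraries entered the test. Of 19647 genes with summed counts, 11908 were expressed highly enough to be tested (an FPKM, the deposited level scaled to transcript length and library size, of 1 or more in at least 3 libraries), and 3054 of these were called at an adjusted p below 0.05.

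The groups hold 3 libraries each, all from A549 cells with no treatment. OE stands for cells labelled NR0B1 overexpression and OEC for the cells labelled WT-overexpression control. KD stands for cells with the short hairpin shNR0B1, labelled NR0B1 knockdown, and KDC for the cells with the hairpin shNC, labelled WT-knockdown control. The labels give no vector, promoter, hairpin sequence, dose or time, and do not say whether a derivative was a pool or a clone. They also do not say whether libraries of a group came from separate cultures, so p-values measure only the spread between these libraries, which may be technical.

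NR0B1, also known as DAX1, is an orphan nuclear receptor that lacks the usual DNA-binding domain and acts mostly as a corepressor of other receptors, SF-1 among them. It is best known from the adrenal gland and gonad, and is also made in KEAP1-mutant lung cancer cells. AP-1 factors such as JUN and FOSL1, and the YAP and TEAD proteins that switch on CTGF, CYR61 and ANKRD1, couple growth factor and mechanical signals to transcription. ATF4 drives amino acid synthesis and transfer RNA charging under stress.

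A positive difference arises when a gene rose with overexpression and fell in the knockdown, when a single arm moved, or when both moved the same way by unequal amounts. The same number equals the gap between OE and KD minus the gap between OEC and KDC, so the control groups weigh as much as the treated groups, and every comparison below shares libraries with the difference. The overexpression arm and the knockdown arm share no library with each other. The control groups themselves differed: 33.4% of the genes tested were called between OEC and KDC, against 18.1% between OE and OEC and 23.9% between KD and KDC.

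Libraries held between 15049011 and 22797076 expected counts. OEC replicate 1, KD replicate 2 and KD replicate 3 lay farthest from their group means, with an SD over genes of 0.469, 0.545 and 0.461 log2 CPM (counts scaled to library size), against 0.252 to 0.355 in the other libraries. OEC replicate 1 and KD replicate 2 are the pair named below as standing apart. Keratins and other markers of A549-like epithelium summed to between 9211 and 17453 CPM in every library. Of their 10 genes, NKX2-1 and SFTPB, which define lung alveolar identity, stayed under 1 CPM. All 6 endothelial and all 5 erythroid markers were under 1 CPM in every library, and the T cell marker CD3E was at 0 throughout.

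NR0B1 (X:30304206-30309598, GRCh38, minus strand) was at 98.9, 81.8 and 84.1 CPM in OE and at 17.9, 60.1 and 55.2 CPM in OEC. In KD it was at 2.99, 3.31 and 5.84 CPM and in KDC at 16.3, 21.1 and 13.3 CPM. Treated and control libraries did not overlap in either arm, and KDC lay below 2 of the 3 OEC libraries. Its difference was 3.05 on the log2 scale (SE 0.57, adjusted p = 0.0035, edgeR). By the rule used for all genes NR0B1 counted as changed in the knockdown arm only, since its rise of 0.99 with overexpression had an adjusted p of 0.0912 while its fall of 2.06 in the knockdown had 0.00593. With OEC replicate 1 and KD replicate 2 both left out, the difference of NR0B1 was 2.56 (adjusted p = 0.000758).

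Among all genes the difference was called in 25.6%, with 1557 higher (13.1%) and 1497 lower (12.6%). Counts in the gene lists below are to be read against these shares. The difference was 2-fold or more in 1685 called genes, 14.2% of those tested. The genes fell into patterns by what each arm did on its own. In 490 genes (4.11%) both arms were called in opposite directions: 270 rose with overexpression and fell in the knockdown, and 220 did the reverse. Another 806 genes (6.77%) were called in the overexpression arm only and 1262 (10.6%) in the knockdown arm only. In 480 genes (4.03%) the difference was called while neither arm was. Both arms were called in the same direction in 199 genes (1.67%), of which only 16 also had a called difference.

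These counts rest on where a threshold falls. Of the 490 opposite genes, 195 (without OE replicate 3) to 458 (without KD replicate 3) kept that class in the 12 fits that each left out a library. Among those named below, CBS, MT1F and CTSF kept it in 4 of the 12 fits, TCN1, ATF3, PHGDH, TARS and GBP2 in 3, RHOV, ADORA1, SAT1 and TM7SF2 in 2, and GAR1, MGST3, ACSF2 and SREBF2 in 5. Their differences stayed called in all 12. Of the 2068 genes called in 1 arm only, 1745 moved the opposite way in the other arm without passing the test there, a direction that the call in the difference itself favours. Across all 11908 genes the log2 fold changes of the arms had a Pearson correlation of -0.0559 and a Spearman correlation of -0.11, a description over genes that are not independent. The plot of the arms against each other shows these patterns as sectors.

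**Figure D1:**
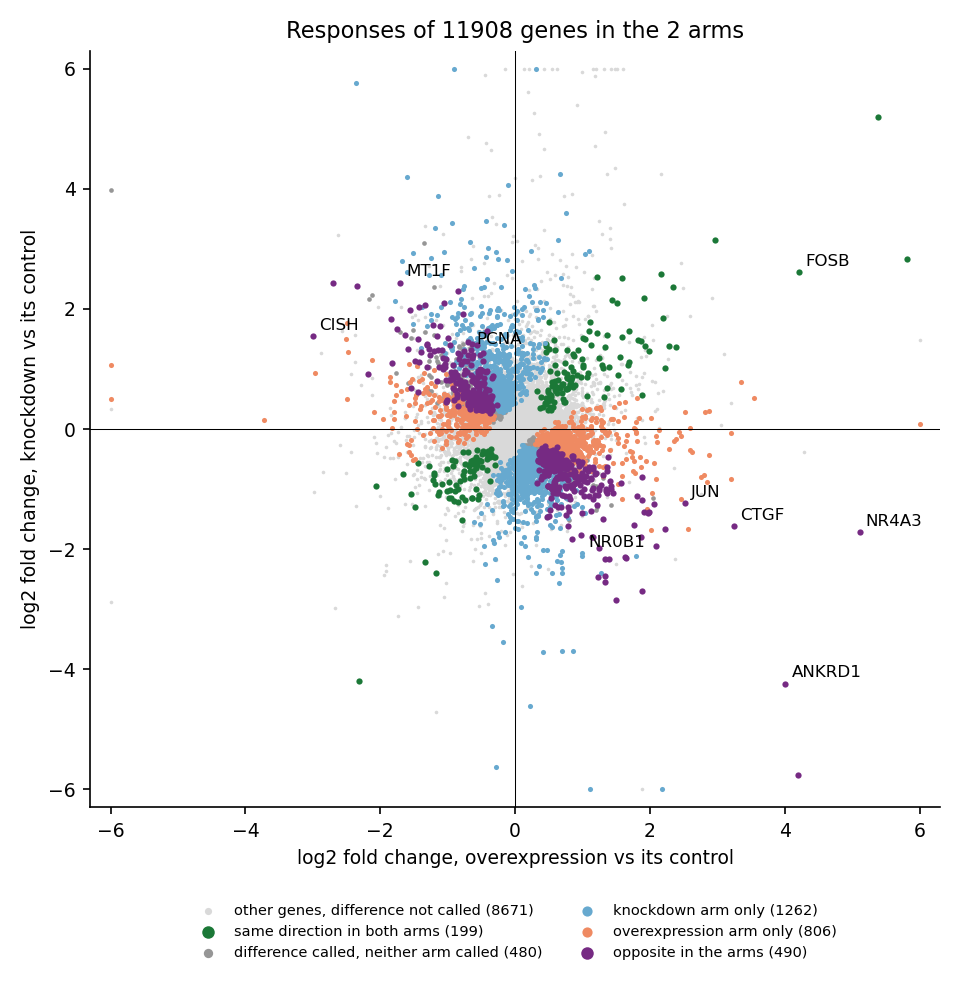
Log2 fold change with NR0B1 overexpression (x axis) against that in the NR0B1 knockdown (y axis) for each of 11908 genes, coloured by pattern, with values beyond 6 drawn at the edge. The 490 genes of opposite response lie in the upper left and lower right, and the 199 of the same direction in the other corners.

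Levels in the 4 groups describe the patterns. For the 270 genes that rose with overexpression and fell in the knockdown, the median level, centred on each gene's own mean, was 0.33 log2 CPM in OE, -0.42 in OEC, -0.33 in KD and 0.41 in KDC. OE thus stood near KDC, and KD near OEC. The median gap was 0.71 between OE and OEC, -0.75 between KD and KDC, and -0.81 between the 2 control groups. For the 220 genes of the reverse pattern the medians were -0.27 in OE, 0.40 in OEC, 0.30 in KD and -0.41 in KDC, with a gap of 0.83 between the controls. The genes were chosen for opposite calls, so the signs of the gaps within each arm follow from the choice. The choice also favours a gap between the controls, and its share in that gap was not tested.

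The genes called in 1 arm had less symmetric levels. Where the overexpression arm alone was called higher, in 456 genes, KD and KDC lay at -0.11 and 0.11, between OE at 0.41 and OEC at -0.44. Where the knockdown arm alone was called higher, in 652 genes, OE and OEC lay at -0.05 and 0.18, between KD at 0.37 and KDC at -0.50.

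**Figure D2:**
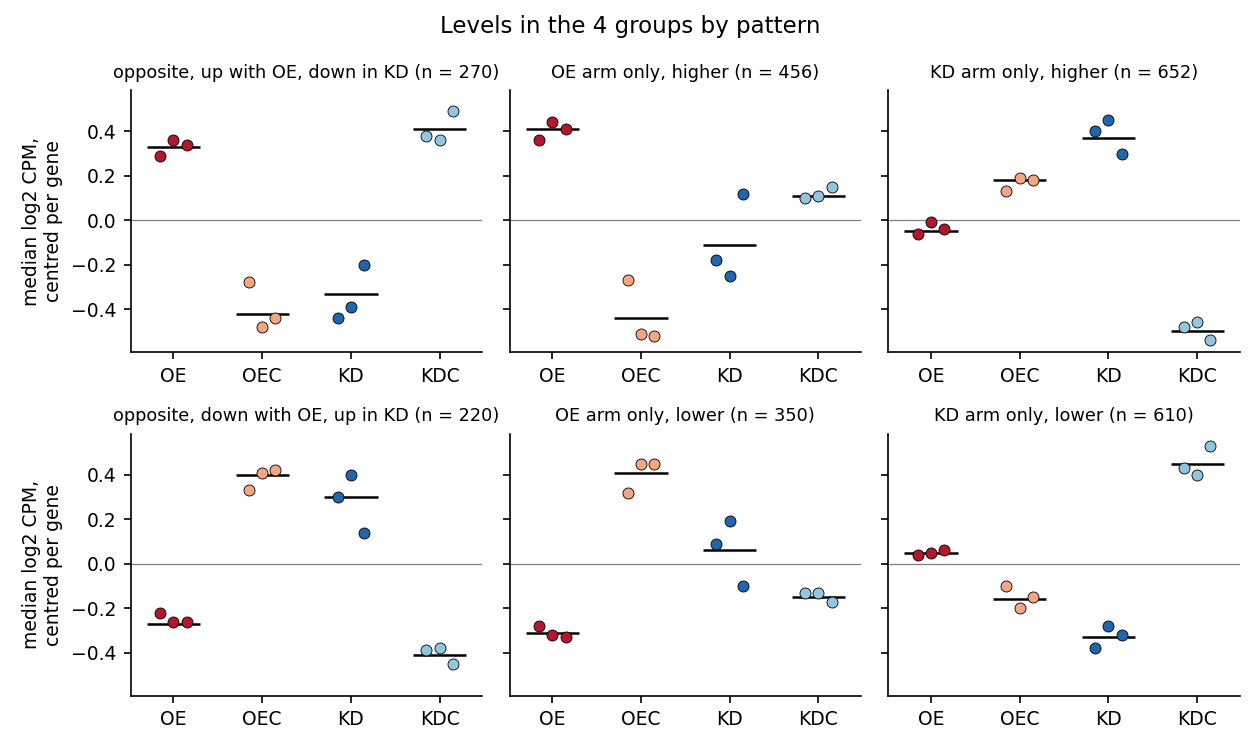
Median over genes of log2 CPM centred on each gene's mean (y axis) in the 12 libraries (points) and 4 groups (bars are group medians), 1 panel per pattern with its number of genes. In the opposite patterns OE lies on the side of KDC and OEC on the side of KD.

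Within the opposite pattern the 10 genes with the largest smaller fold change that rose with overexpression were NOP56, ANKRD1, ADM, CYR61, KLF2, NR4A3, FOSL1, CREB5, CCDC181 and CTGF. Their differences ran from 3.67 (KLF2) to 9.96 (NOP56) on the log2 scale. NOP56, a box C/D snoRNP protein, was at 48.0 CPM or less in every library, and with the assembled transcripts of its symbol added its difference shrank to 1.3 (adjusted p = 0.0431). ANKRD1, ADM, CYR61, KLF2, NR4A3, FOSL1 and CTGF moved by less than 0.1 when those transcripts were added, while CREB5 went from 3.80 to 2.86.

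Promoter sequences were matched to 6 of these 10 genes. In the 250 bases before the RefSeq start CTGF, ANKRD1 and NR4A3 held letters of at least 1 motif searched, and NOP56, ADM and KLF2 held none. The stretches with matches are printed to show where the letters lie. Each runs 5′ to 3′ on the strand of its gene up to the base before the start (RefSeq, GRCh38.p14), in lower case with matched letters in capitals. CTGF, RefSeq symbol CCN2, lies on the minus strand at chr6:131951373-131951622, ANKRD1 on the minus strand at chr10:90921088-90921337 and NR4A3 on the plus strand at chr9:99821635-99821884.
CTGF: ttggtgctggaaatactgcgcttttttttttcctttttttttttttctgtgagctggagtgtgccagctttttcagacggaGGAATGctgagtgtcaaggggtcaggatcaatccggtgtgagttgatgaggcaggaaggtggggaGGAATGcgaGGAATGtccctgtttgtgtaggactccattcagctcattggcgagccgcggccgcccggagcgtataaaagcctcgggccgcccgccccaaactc
ANKRD1: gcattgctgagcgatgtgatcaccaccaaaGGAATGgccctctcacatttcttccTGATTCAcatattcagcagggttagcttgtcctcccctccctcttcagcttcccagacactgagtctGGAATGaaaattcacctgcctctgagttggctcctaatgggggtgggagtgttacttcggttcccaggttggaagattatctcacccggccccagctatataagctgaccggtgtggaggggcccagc
NR4A3: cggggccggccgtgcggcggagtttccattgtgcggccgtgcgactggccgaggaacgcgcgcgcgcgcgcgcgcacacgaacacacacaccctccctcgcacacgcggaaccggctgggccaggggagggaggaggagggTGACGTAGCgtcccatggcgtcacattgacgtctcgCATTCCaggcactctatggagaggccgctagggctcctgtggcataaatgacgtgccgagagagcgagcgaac

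In CTGF the capitals mark the TEAD letters GGAATG 3 times, beginning 169, 104 and 95 bases before the start. In ANKRD1 they mark GGAATG at 220 and 128 bases and the AP-1 letters TGANTCA at 195 bases before the start. In NR4A3 they mark the core of the antioxidant response element, TGACNNNGC, at 109 bases and the TEAD letters on the other strand at 73 bases. Both strands were searched, and TGACNNNGC can overlap TGANTCA. N stands for any base, so TGANTCA also takes in forms such as the TGATTCA of ANKRD1.

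Promoter sequences were matched to 6909 of the 11908 genes tested. The TEAD letters stood in 8.94% of all these promoters, in 9.36% of the 171 of the rising opposite genes and in 10.2% of the 128 of the falling opposite genes. The AP-1 letters stood in 3.56%, 5.26% and 5.47% of the same sets. The cyclic AMP response element TGACGTCA stood in 3.47% of all promoters, in 7.60% of the rising and in 0.781% of the falling opposite genes. The ATF4 letters TGATGNAA (1.10% of all promoters), the SF-1 letters TCAAGGNCA (0.376%) and the NR4A letters AAAGGTCA (0.767%) were rare. SF-1 and NR4A letters were in none of the promoters of either opposite set. The antioxidant response element core stood in 12.3% of all promoters, in 12.3% of the rising and in 8.59% of the falling opposite genes. These shares are descriptions, and absent letters in this window say nothing about binding of a factor.

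CTGF, a matricellular growth factor, was at 184, 184 and 215 CPM in OE and 18.1, 21.6 and 21.5 CPM in OEC, against 38.6, 26 and 32.8 CPM in KD and 90.0, 94.9 and 114 CPM in KDC. No library of a treated group overlapped its control. The difference was 4.87 (95% interval 4.37 to 5.37, adjusted p = 1.54e-06), from 9.53-fold higher with overexpression and 3.07-fold lower in the knockdown. ANKRD1, an ankyrin repeat protein and YAP target, was at 90.4, 70.5 and 83.3 CPM in OE and 2.73, 5.73 and 6.64 CPM in OEC. In KD it was at 3.30, 0.552 and 6.70 CPM and in KDC at 75.1, 64.7 and 60.4 CPM. OE and KDC were the high groups, and the difference was 8.26 (SE 0.81, adjusted p = 0.000176).

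YAP and TEAD targets as a list were led by these genes. Of 23 measured, 15 were higher in the difference and 2 lower, against 13.1% and 12.6% of all genes, with a median of 1.14 against -0.06. Of these, 7 were called in opposite directions in the arms. The median gap between the controls, OEC minus KDC, was -0.79 in this list against 0.01 among all genes. LATS2, a Hippo kinase that restrains YAP and is induced by it, was at 121, 158 and 145 CPM in OE, 28.9, 41.2 and 44.1 in OEC, 29.6, 27.2 and 32.5 in KD and 63.0, 71.2 and 68.7 in KDC. OE was the highest group and KD the lowest, and the difference was 3.07 (adjusted p = 3.63e-05). AJUBA, a LIM protein of the same pathway, differed by 2.74, with the highest levels in KDC (405 to 464 CPM). CYR61, a matricellular relative of CTGF, differed by 4.58 and was likewise highest in KDC, at 615 to 806 CPM.

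AP-1 and other immediate early genes rose in the difference in 13 of 24 measured genes and fell in 0, with a median of 1.53. The median gap between the controls, OEC minus KDC, was -0.61. In opposite directions 8 were called. Leaving out single libraries gave 12 to 15 higher and 0 lower, except that 1 was lower without KD replicate 3. JUN, the central AP-1 subunit, was at 274, 297 and 280 CPM in OE and 66.8, 32.9 and 48.2 CPM in OEC, and at 109, 101 and 140 CPM in KD and 278, 247 and 293 CPM in KDC. The ranges of OE and KDC overlapped, and OEC was the lowest group. The difference of JUN was 3.75 (SE 0.31, adjusted p = 5.75e-05), from 5.75-fold higher and 2.34-fold lower. FOSL1, its partner, was at 98.9 to 107 CPM in OE and 90.6 to 105 CPM in KDC, against 20.2 to 24.9 CPM in OEC and 16.7 to 59.3 CPM in KD.

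NR4A3, an orphan nuclear receptor induced by growth signals, differed in shape. It was at 68.8, 62.0 and 85.2 CPM in OE, and at 2.80, 1.80 and 1.63 in OEC, 1.80, 3.44 and 1.54 in KD and 6.22, 5.69 and 10.4 in KDC. OE stood above every other group, and the difference of 6.84 (adjusted p = 3.17e-05) came mainly from a 34.6-fold rise with overexpression beside a 3.30-fold fall. MYC, which drives growth and ribosome synthesis, differed by 3.37 and SRF, the serum response factor, by 1.88. ATF3, a stress-induced AP-1 partner, differed by 4.34 and was highest in KDC, at 106 to 120 CPM.

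The receptor ligand HBEGF, which activates EGFR, differed by 3.37 and was called in opposite directions. Its relatives AREG and EREG differed by 1.51 and 1.74, with only their falls in the knockdown called. The list of EGFR family members and ligands as a whole had 5 higher and 3 lower of 16, 50% called beside 25.6% of all genes. In the list of ERK feedback genes, which damp this signal, 7 of 20 were higher and 0 lower, 35% called. The lower count was 1 without KD replicate 1 or KD replicate 3, and 2 without OEC replicate 1, when 10 were higher. DESeq2 and upper quartile scaling also gave 2 lower. DUSP8, a phosphatase of JNK and p38, differed by 2.96 with both arms called. DUSP1, another MAP kinase phosphatase, differed by 1.46 through the knockdown arm, where it was at 203, 257 and 130 CPM against 535, 570 and 619 CPM in KDC. ADM, the secreted peptide adrenomedullin, had nearly equal arms: 84.6, 110 and 104 CPM in OE, 30.8, 17.7 and 21.6 in OEC, 24.7, 21.1 and 30.7 in KD and 93.2, 83 and 120 in KDC, with a difference of 4.04 (adjusted p = 4.77e-05).

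**Figure D3:**
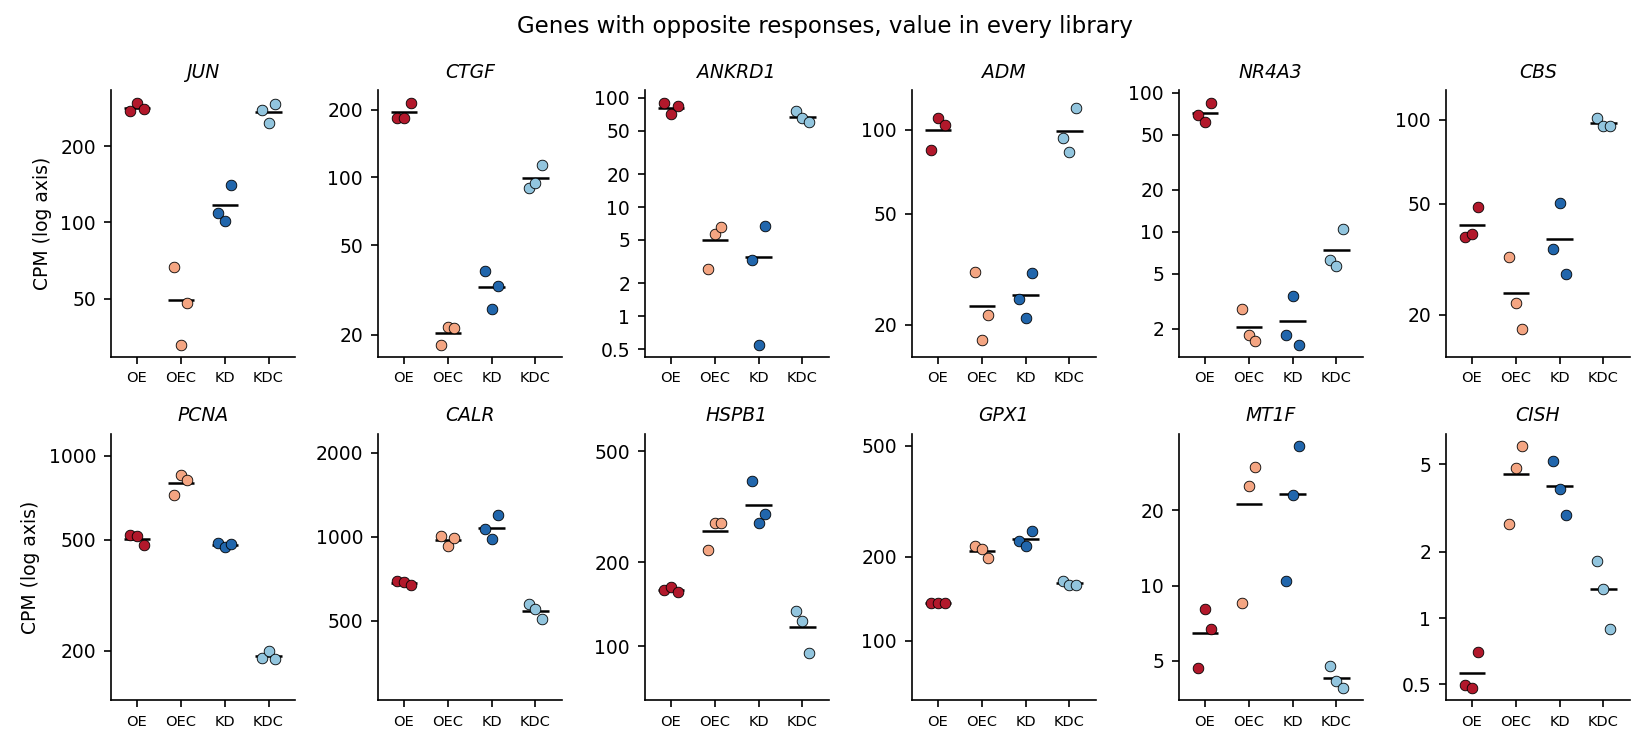
CPM on a log axis (y axis, each panel with its own range) of 12 genes with opposite responses in the 3 libraries of each group (points), with group means (bars). JUN, ADM and ANKRD1 reach about the same level in OE and KDC, while NR4A3 is high in OE alone and CBS in KDC alone.

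Among ATF4 targets and tRNA synthetases, the largest share of the calls lay in the knockdown arm. Of 30 ATF4 targets 17 were higher and 0 lower (median 1.3). Of the 17, 3 were in opposite directions, 8 in the knockdown arm only, 2 in the overexpression arm only and 4 with neither arm called. The median gap of this list between the controls, OEC minus KDC, was -1.01. Leaving out any of KDC replicate 3, OE replicate 3, OEC replicate 2 or OEC replicate 3 gave 11 calls, and leaving out both libraries that stood apart gave 26. STC2, a secreted glycoprotein, differed by 3.57, and PHGDH, the first enzyme of serine synthesis, by 1.54, both opposite. ASNS, asparagine synthetase, was at 219, 198 and 239 CPM in OE, 192, 97.4 and 92.3 in OEC, 120, 177 and 89.8 in KD and 340, 345 and 394 in KDC. Its highest group was KDC, OEC replicate 1 stood apart from its group, and the difference was 2.26 (adjusted p = 0.00309), with only the fall in the knockdown called.

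Cytosolic tRNA synthetases, which load amino acids onto transfer RNAs, were higher in 13 of 22 and lower in 1. Of the 13, 10 were called in the knockdown arm only. The median difference of this list was 0.84 and its median gap between the controls, OEC minus KDC, was -0.68. TARS differed by 1.43 with both arms called, while EPRS (0.95), MARS (1.80) and NARS (1.23) were called in the knockdown arm alone. Among 34 ribosome biogenesis factors 21 were higher and 0 lower (median 1.04), with a median gap between the controls of -0.88. Of the 21, 9 were in opposite directions, 6 in the overexpression arm only, 2 in the knockdown arm only and 4 with neither arm called. DDX21, a nucleolar helicase, was at 616, 617 and 649 CPM in OE, 479, 370 and 413 in OEC, 383, 393 and 498 in KD and 752, 752 and 924 in KDC. The groups did not overlap within an arm, and the difference was 1.51 (adjusted p = 0.00066). PPAN, a 60S assembly factor, and GAR1, a box H/ACA protein, differed by 1.93 and 1.55. Of the 43 proteins of the ribosome itself 0 were higher and 7 lower (median -0.36), a share of lower calls near that of all genes. RPS19, a small subunit protein, fell with overexpression and rose in the knockdown, with a difference of -1.20. Leaving out KD replicate 2 gave 24 lower ribosomal proteins and leaving out OEC replicate 1 gave 16, while each of the other libraries left out gave 2 to 4.

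Genes of the study's theme, glutathione supply and lipid peroxide repair (ferroptosis), were followed in 18 genes chosen for the theme of the series title. Of these, 5 were higher in the difference and 1 lower, 33.3% called beside 25.6% of all genes. Single libraries left out gave 3 to 7 higher and 1 lower. With all libraries, JUN and CBS were called in opposite directions, NFE2L2 in the knockdown arm only and GPX4 in the overexpression arm only. GCLC and SLC3A2 had neither arm called. CBS, the first enzyme of transsulfuration, which makes cysteine from methionine, was at 38.0, 38.8 and 48.8 CPM in OE and 32.1, 22.0 and 17.8 in OEC, against 34.3, 50.1 and 27.9 in KD and 101, 94.9 and 95.2 in KDC. KDC stood above every other library, and OE overlapped KD. The difference was 2.18 (SE 0.34, adjusted p = 0.00143), and OEC lay 4.05-fold below KDC.

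NFE2L2, the gene of NRF2, was at 312, 274 and 280 CPM in OE, 243, 167 and 189 in OEC, 117, 188 and 131 in KD and 356, 329 and 326 in KDC, a difference of 1.74 (adjusted p = 0.00106). Both arms were free of overlap, but only the fall in the knockdown was called. GPX4, which reduces lipid peroxides in membranes, was at 96.3, 105 and 96.1 CPM in OE and 150, 182 and 174 in OEC, and at 126, 117 and 121 in KD and 142, 108 and 125 in KDC. OE was the lowest group, KD and KDC overlapped, and the difference was -0.72 (adjusted p = 0.00801). GCLC, the catalytic subunit for glutathione synthesis, differed by 0.96 (adjusted p = 0.0259) and SLC3A2, the heavy chain of the cystine transporter, by 1.49 (adjusted p = 0.0349). Of the 12 fits that left out a library, 5 called GCLC and 2 called SLC3A2. The adjusted p reached 0.0623 for GCLC (difference 0.90, without OEC replicate 2) and 0.0742 for SLC3A2 (difference 1.40, without KD replicate 1).

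The difference was not called for the other 12. SLC7A11, the cystine transporter itself, differed by 0.64 (95% interval -0.62 to 1.89), with OEC replicate 1 at 1055 CPM against 314 and 300 CPM in the other OEC libraries. With both libraries that stood apart left out it was called at 1.52 (adjusted p = 0.00198). Without OEC replicate 1 alone SLC7A11 was called at 1.49 and CHAC1 at 3.18. CHAC1, which degrades glutathione, differed by 2.09 and ACSL4, which supplies the lipids that peroxidise, by -1.27, with intervals of -0.15 to 4.33 and -2.62 to 0.09. The remaining differences lay between -0.48 (CTH) and 0.31 (KEAP1 and TFRC), with GCLM at -0.11, GSS at -0.17, GSR at -0.01, FTH1 at 0.01, AIFM2 at 0.05 and HMOX1 at 0.23. HMOX1, which degrades heme, was called at 0.92 without KD replicate 3, ACSL4 at -1.09 with assembled transcripts added and AIFM2 at 0.50 with both libraries that stood apart left out.

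Glutathione metabolism more widely was lower in the difference in 12 of 38 genes and higher in 3 (median -0.49). GPX1, a soluble glutathione peroxidase, was at 137, 136 and 137 CPM in OE, 218, 214 and 198 in OEC, 228, 219 and 248 in KD and 164, 159 and 159 in KDC. OE was the lowest group and KD the highest, and the difference was -1.15 (SE 0.12, adjusted p = 0.000216). The microsomal transferases MGST2 and MGST3 differed by -1.32 and -0.87, both opposite, and GSTO1 by -1.17 through the knockdown arm. Of 40 NRF2 targets 9 were lower and 3 higher, 30% called, a share near that of all genes. The counts of lower and higher NRF2 targets became equal without KD replicate 3 (6 and 6) and without OEC replicate 1 (8 and 8), and the lower count was 4 without KDC replicate 3 or OE replicate 2 and 5 without OE replicate 3. AKR1C3, an aldo-keto reductase on that list, was at 711, 539 and 585 CPM in OE, 1180, 982 and 1074 in OEC, 663, 736 and 693 in KD and 423, 390 and 428 in KDC, a difference of -1.57 (adjusted p = 0.000269).

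Lists of genes that drive and that suppress ferroptosis both had more lower than higher calls, 8 against 1 of 26 drivers (34.6% called) and 6 against 2 of 27 suppressors (29.6% called), beside 25.6% of all genes. The suppressors had 6 lower and 5 higher without OEC replicate 1, and 7 lower and 6 higher with both libraries that stood apart left out. Among the drivers SLC11A2, an iron transporter, and ACSF2, an acyl-CoA synthetase, differed by -1.49 and -1.73, and ALOX5, a lipoxygenase, by -3.76. SAT1, the polyamine acetyltransferase, differed by -3.10, but by -0.73 (adjusted p = 0.352) with its assembled transcripts added. Among the suppressors HSPB1, a small heat shock protein, was at 159, 163 and 156 CPM in OE, 221, 277 and 276 in OEC, 390, 277 and 297 in KD and 134, 123 and 94.8 in KDC, with a difference of -2.15 (adjusted p = 0.000225).

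**Figure D4:**
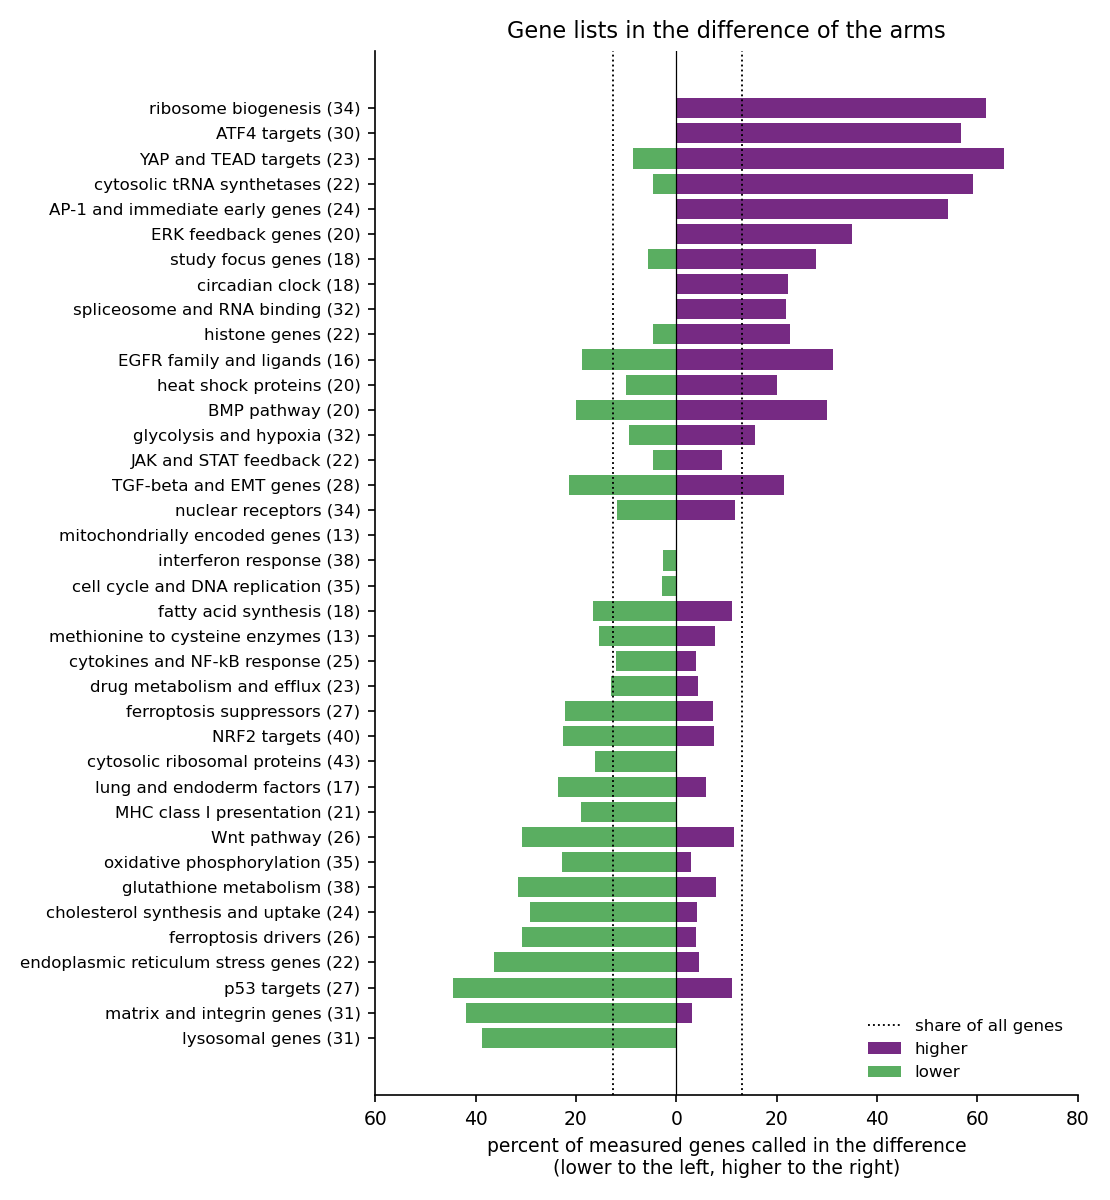
Share of measured genes of each list (number in brackets) called higher (right) or lower (left) in the difference of the arms, with dotted lines at the 13.1% and 12.6% of all genes. Ribosome biogenesis, ATF4, YAP and TEAD, tRNA synthetase and AP-1 lists reach far to the right, and p53, matrix and lysosomal lists to the left.

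Among the genes that fell with overexpression and rose in the knockdown, TCN1, ADAMTS7, MT1F, PLXNB3, PLEKHF1, CISH, CD14, RHOV, CTSF and ADORA1 had the largest smaller fold change, with differences from -2.70 (ADORA1) to -4.73 (TCN1). With both libraries that stood apart left out ADORA1 was called in the knockdown arm only. CISH, a feedback inhibitor of cytokine receptors, was at 0.497, 0.481 and 0.704 CPM in OE and 2.67, 4.81 and 6.05 in OEC, and at 5.15, 3.87 and 2.95 in KD and 1.82, 1.36 and 0.893 in KDC. OE was the lowest group, and the difference was -4.55 (adjusted p = 0.000603). MT1F, a metallothionein that binds zinc and copper, differed by -4.15, with OEC at 8.52 to 29.9 CPM and KD at 10.4 to 36.1 CPM against 4.68 to 8.04 CPM in OE and 3.89 to 4.75 CPM in KDC. Metallothionein genes are near copies of each other, so reads could be divided among them. CD14, an endotoxin co-receptor of myeloid cells, differed by -3.46. Of the 8 leukocyte markers 6 were under 1 CPM in every library, and their sum was 5.07 to 6.68 CPM in OE, 13.7 to 16.2 in OEC, 7.80 to 15.9 in KD and 5.22 to 5.85 in KDC, most of it CD14 and ITGAM. PTPRC, the pan-leukocyte marker, was at 0.0509 CPM in KD replicate 1 and at 0 elsewhere.

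PCNA, the sliding clamp of DNA replication, was at 519, 516 and 479 CPM in OE, 724, 851 and 816 in OEC, 488, 469 and 484 in KD and 189, 200 and 187 in KDC. KDC was lowest and OEC highest, OE and KD were alike in range, and the difference was -1.98 (SE 0.13, adjusted p = 2.65e-05). It was the only one of 35 cell cycle and replication genes called, but 13 were lower without KD replicate 2, 4 without OEC replicate 1 and 19 with both libraries that stood apart left out.

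Targets of p53 were lower in the difference in 12 of 27 genes and higher in 3 (median -0.74, and -0.43 without KD replicate 2, when 12 were lower). FAS, a death receptor, was at 17.2, 21.6 and 21.1 CPM in OE, 30.3, 28.3 and 35.3 in OEC, 49.5, 56.4 and 44.2 in KD and 23.9, 23.1 and 25.2 in KDC, a difference of -1.70 (adjusted p = 0.000363). KD was the highest group and OE was below all KDC libraries. FDXR, the mitochondrial ferredoxin reductase, differed by -2.25, also opposite, and TP53I3, a quinone oxidoreductase, by -1.53 through the knockdown arm. GADD45A, a stress and repair gene of the same list, differed by 1.88: it was at 119 to 153 CPM in KDC and at 21.1 to 36.3 CPM in all other libraries.

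Matrix and integrin genes were lower in 13 of 31 and higher in 1 (median -1.12). ITGAV, the alpha V integrin, was at 229, 263 and 265 CPM in OE, 416, 339 and 351 in OEC, 577, 576 and 501 in KD and 297, 318 and 372 in KDC, with a difference of -1.29 (adjusted p = 0.000742). COL6A1, a collagen VI chain, and HSPG2, the basement membrane proteoglycan perlecan, differed by -1.67 and -1.44 in the opposite pattern. COL4A2, a basement membrane collagen, differed by -1.31 through the knockdown arm. Of 8 fibroblast markers, which include collagen genes, 5 were under 1 CPM in every library. Their sum was 17.8 to 52.3 CPM in KD against 1.02 to 6.25 CPM in the other groups, most of it COL1A1. THY1 was at 6, 4.18 and 2.76 CPM in KD and LUM at 2.39, 1.58 and 1.62 CPM. Both lay above every library of the other groups there. The 5 markers under 1 CPM included PDGFRB, which never passed 0.104 CPM. The part of the fibroblast markers in the matrix result was not tested.

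TGF-beta and epithelial-mesenchymal genes had 6 higher and 6 lower calls of 28, 42.9% called beside 25.6% of all genes. TGFBR1, the type I receptor, was at 296, 295 and 263 CPM in KD and between 72.5 and 124 CPM in all other libraries, which gave a difference of -1.47 (adjusted p = 0.000602). LTBP2, a latent TGF-beta binding protein, differed by -2.58. SMAD7, the inhibitory SMAD, was at 30.9 to 39.4 CPM in OE and 5.86 to 7.59 CPM in OEC, with KD and KDC overlapping. Its difference of 2.55 fell to 1.39 with its assembled transcripts added. FSTL1, a secreted modulator on the BMP list, differed by -1.67 through a 3.93-fold rise in the knockdown. Of 26 Wnt pathway genes 8 were lower and 3 higher, 42.3% called. Among the lower were the receptor FZD5 (-1.30), the secreted antagonist DKK3 (-2.46) and CTNNB1, beta-catenin (-0.70), all through the knockdown arm.

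Of 22 endoplasmic reticulum stress genes 8 were lower and 1 higher (median -0.49), 40.9% called beside 25.6% of all genes. Heat shock proteins, the other list of folding genes, had 4 higher and 2 lower of 20 (median -0.01), 30% called. Without KD replicate 2 the heat shock list had 4 higher and 6 lower, and without KDC replicate 3 it had 1 higher and 1 lower. CALR, a calcium-binding chaperone, was at 693, 687 and 672 CPM in OE, 1003, 929 and 994 in OEC, 1063, 979 and 1194 in KD and 573, 550 and 508 in KDC, with a difference of -1.50 (SE 0.14, adjusted p = 0.000155). The disulphide isomerase PDIA4 differed by -1.24 in the opposite pattern, as did its relative PDIA3 of the MHC class I list by -1.04. PDIA6 differed by -0.90 through the knockdown arm and HSP90B1, the chaperone GRP94, by -0.98 through the overexpression arm. Of 31 lysosomal genes 12 were lower and 0 higher. PSAP, the precursor of saposins, differed by -1.23, the cholesterol carrier NPC2 by -1.0 and the protease CTSH by -1.45. Of 24 cholesterol genes 7 were lower and 1 higher, 33.3% called, and the lower count was 3 when any of KD replicate 1, KDC replicate 1, KDC replicate 3, OE replicate 2 or OE replicate 3 was left out, and 4 without KDC replicate 2 or OEC replicate 3. Among them were SREBF2, which encodes their main activator, at -0.87 and TM7SF2, a sterol reductase, at -0.90, both opposite. Of 13 mitochondrially encoded messengers edgeR and limma called 0 with all libraries, and 2 had an unadjusted p below 0.05 in edgeR. DESeq2 called 1, as did edgeR without KD replicate 1, without KDC replicate 3 or with assembled transcripts added. Nuclear subunits of the respiratory chain had 8 of 35 lower and 1 higher, 25.7% called, the share of all genes, and the lower count ran from 3 (without KDC replicate 2 or KDC replicate 3) to 15 (without KD replicate 2).

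Interferon-stimulated genes were set apart by a single library. Their mean level, centred on each gene's mean, was 2.53, 1.86 and 2.07 log2 CPM in OE, 2.42, 1.35 and 0.88 in OEC and -2.64, -2.77 and -2.49 in KDC, but -2.51, 2.33 and -3.02 in KD. KD replicate 2 thus stood with OE and OEC, and the other KD libraries with KDC. Only GBP2, an interferon-induced GTPase, was called by edgeR among 38 (DESeq2 called 10, all lower), with a difference of -2.71 (adjusted p = 0.00678). The median of the list was -2.69, and it turned to 0.49 without KD replicate 2, when 4 were higher and 1 lower. Without KD replicate 1 or KD replicate 3 it was 12 or 14 that were lower, and 0 higher. With OEC replicate 1 also left out the median was 1.05, with 16 higher and 1 lower. MHC class I genes had the same shape, at -0.82, 1.06 and -0.92 in KD, and their median went from -1.21 to -0.25 without KD replicate 2, while the lower calls went from 4 to 9 without KD replicate 3. No direction is given for either list.

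**Figure D5:**
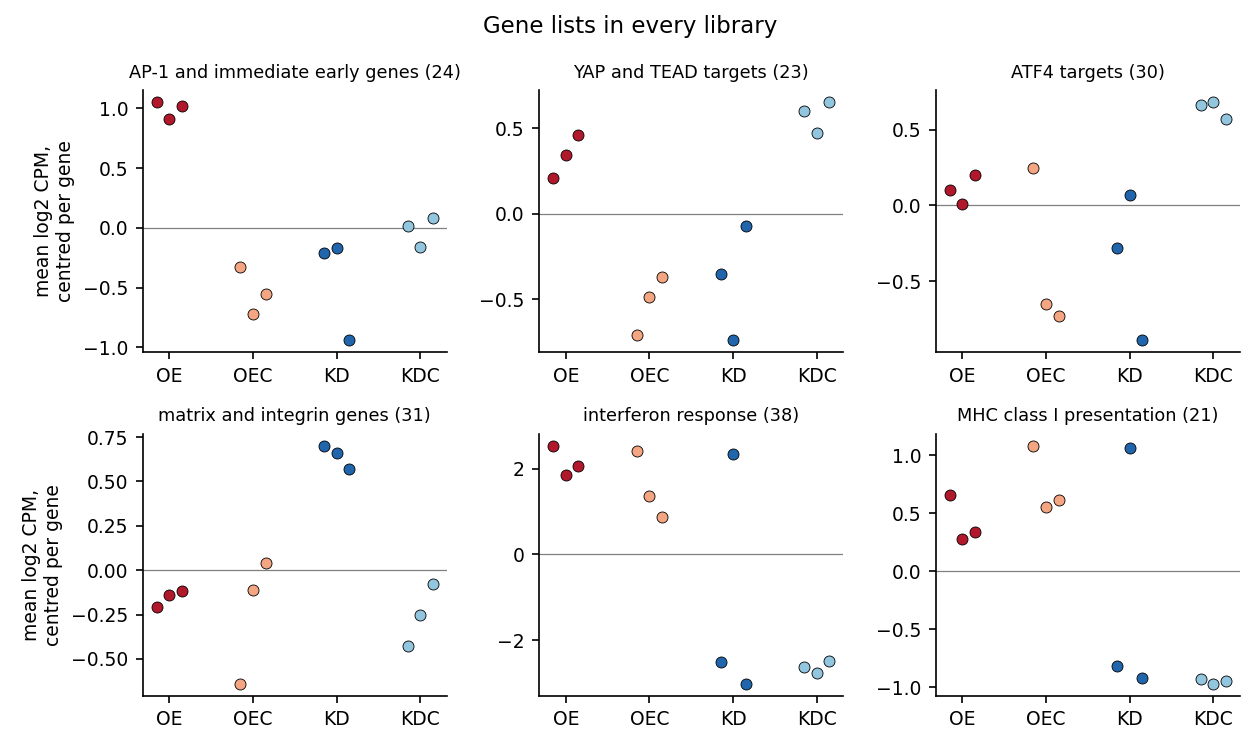
Mean over the measured genes of a list (number in brackets) of log2 CPM centred on each gene's mean (y axis) in the 3 libraries of each group (points), for 6 lists, each panel with its own range. In the interferon and MHC class I panels KD replicate 2 lies near the OE and OEC libraries and apart from the other KD libraries.

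Genes called in 1 arm only were led by genes at very low levels on one side of an arm. In the overexpression arm DIO2, the deiodinase that activates thyroid hormone, was at 24.1, 37.2 and 36.9 CPM in OE against 1.14, 0 and 0 in OEC, with 6.03, 2.02 and 9.84 in KD and 5.93, 5.10 and 5.83 in KDC. It was highest in OE and lowest in OEC, and the difference was 6.35 (adjusted p = 0.00379). SNAI2, the transcription factor Slug, rose from 1.89 to 3.43 CPM in OEC to 18.3 to 21.4 in OE, and its difference was 3.73 (adjusted p = 0.00053). PRR22 and FAM71F2 differed by 4.04 and 3.58, and ZBTB37 by 3.70, or 0.76 with assembled transcripts added.

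Genes lower in that arm included INKA2, an inhibitor of the kinase PAK4, which was at 0 in every OE library and at 2.54, 5.79 and 4.23 CPM in OEC. Against 3 counts over the group it was at least 57.9-fold lower in OE. KD and KDC overlapped, at 7.44 to 18.9 and 4.20 to 13.7 CPM, and the difference had an adjusted p of 0.00141. IL1B, an inflammatory cytokine, differed by -4.01, SEMA4C, a semaphorin, by -3.90 (-1.70 with assembled transcripts) and GRB7, an adaptor of receptor kinases, by -3.89. GRB7 was called in only 3 of the 12 fits that left out a library, with an adjusted p up to 0.0823 (without KDC replicate 1). IL1B was called in 9 of them, and lost its call without KDC replicate 1, KDC replicate 3 or OE replicate 2.

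In the knockdown arm the largest falls among genes with no overlap included HTR1D, SLC1A3, GRIK2 and SVEP1. SLC1A3, a glutamate transporter, was at 0, 0 and 0.246 CPM in KD and 15.6, 12.9 and 13.0 in KDC, with 19.8, 7.56 and 5.95 in OE and 3.24, 5.30 and 6.90 in OEC. KD stood apart from every other group, and the difference was 8.45 (adjusted p = 0.00043). SVEP1, a large secreted adhesion protein, was at 3.35, 0.859 and 2.34 CPM in KD and at 19.5 to 45.1 CPM in all other libraries, a difference of 4.55. GRIK2, a kainate receptor, differed by 5.35 (2.78 with assembled transcripts). HTR1D, a serotonin receptor, was at 0 in every KD library and at 5.05, 10.5 and 1.52 CPM in KDC, at least 98.8-fold lower against 3 counts over the group. With assembled transcripts of that symbol added, the difference of HTR1D was 0.07 (adjusted p = 0.829).

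The largest rises in that arm were less stable. TNFSF10, the death ligand TRAIL, was at 1.65, 21.8 and 0.0615 CPM in KD and CLEC4E, a C-type lectin, at 0.464, 15 and 1.11 CPM. In both, KD replicate 2 was the highest KD library and OEC replicate 1 the highest OEC library. TNFSF10 lost its call without KDC replicate 2 or KDC replicate 3. KREMEN1 and BMF were each called in 5 of the 12 fits that left out a library, with adjusted p-values up to 0.0807 (KREMEN1 without KDC replicate 3) and 0.0959 (BMF without OEC replicate 2).

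When neither arm passed by itself, the smallest adjusted p-values in the difference belonged to RPL7L1 (1.16), GNL3L (1.25), MTREX (0.77) and FAM49B (0.60) among higher genes. DEPP1 (-4.36), ITPR3 (-1.14), SYNGR1 (-1.86) and ATL1 (-1.71) led the lower genes. Their arms missed the threshold narrowly. RPL7L1, a nucleolar relative of a ribosomal protein, was at 160, 157 and 174 CPM in OE, 135, 96.9 and 93.0 in OEC, 113, 93.1 and 152 in KD and 161, 165 and 202 in KDC, free of overlap in each arm, with adjusted p-values of 0.0509 and 0.052 in the arms and 0.0101 in the difference.

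Of the 199 genes that moved the same way in both arms, 120 were higher and 79 lower. FOSB, an AP-1 subunit, was at 75.1, 65.3 and 88.9 CPM in OE and 4.77, 4.42 and 3.12 in OEC, and at 35.8, 5.77 and 4.12 in KD and 2.29, 1.66 and 3.52 in KDC. It rose in both arms, and its difference of 1.60 (95% interval -0.49 to 3.69) was not called, whereas without KD replicate 1 it was 3.23 (adjusted p = 0.0013). EGR3, a zinc finger factor of the same immediate early list, rose 56.6-fold and 7.14-fold (the difference, 2.99, was called at 4.37 without KD replicate 1 and 4.28 without OEC replicate 3), with no more than 0.521 CPM in any control library. ALX1, a homeobox factor, fell in both arms, from 12.8 to 14.7 CPM in OEC to 3.64 to 7.10 in OE and from 9.61 to 11.9 in KDC to 2.02 to 2.64 in KD. Its difference of 0.89 was called at 1.14 without OE replicate 2. NR3C2, the mineralocorticoid receptor, fell 2.26-fold and 5.23-fold, and its difference of 1.21 was called at 1.51 without OE replicate 3 and 1.52 without OEC replicate 1.

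Groups without overlap were common in these data. In 2205 genes, 18.5% of those tested, treated and control libraries did not overlap in either arm. All 270 of the rising and 209 of the 220 falling opposite genes were among them, a count that their calls favour.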

How the data were processed

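RNA was measured in 12 libraries. The authors deposited expected counts and FPKM per transcript, per the file headers. The tools named in the submitters' processing notes were RSEM, StringTie 1.3.1, HISAT2 2.0.5, Bowtie2 2.2.8 and fastp. The notes also list mouse builds, which the human transcript identifiers contradict, and no build of theirs was used. Whether counting used strand is not given in the sources used here, so reads of overlapping antisense genes cannot be told apart.

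Of 96247 rows, 13977 are assembled transcripts, whose symbols rest on similarity, with 13.3% to 15.4% of the counts, and were left out of gene values. Of the other 82270 rows, 82237 are in GENCODE 29 (GRCh38), the source of gene coordinates. Expected counts were summed per symbol, restored in 184 rows where it had become a date, and rounded. Genes were fitted with edgeR 4.0.16 in R 4.3.3 (glmQLFit and glmQLFTest, robust, TMM scaling), with 1 mean per group, no covariate and 8 residual degrees of freedom. Calls used a Benjamini-Hochberg adjusted p below 0.05, and CPM are scaled to TMM library sizes, except for the marker sums, which use plain totals. The biological coefficient of variation was 24.5%. A group at 0 was set to 3 counts over the group for a bound. Such bounds allow for counting error alone, because reads copied by PCR are not separate molecules. The fit was tested on simulated data.

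Alternatives were DESeq2 1.42.0, limma 3.58.1 on log2(FPKM + 1) and log2(FPKM + 0.1), which understates changes of low genes, other scalings and filters, assembled rows added, a replicate block, and libraries left out. The patterns, the 39 gene lists, the naming rule and the motifs were chosen with earlier results of these data known. Named genes are NR0B1, the title's genes, the 10 opposite genes per direction with the largest smaller fold change and no overlap, 5 per direction and single arm by the largest difference, 4 per direction called the same way or in neither arm, and up to 4 list members by smallest adjusted p, and not all of these are reported here.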

Additional observations from a re-analysis of the deposited data

Results flagged for a closer look

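Assembled transcripts outside the annotation, which enter the gene values above only where they are said to be added, also differed between the arms. Of 4742 such rows that passed the same filter, 561 were called in the difference by edgeR, 284 higher and 277 lower. That is a smaller share than the 25.6% called among annotated genes, but the shares are unlike measures. Each assembled row was tested singly, in another fit that held genes and assembled rows together, while gene counts were summed over transcripts. The symbols of these rows rest on similarity and none is named.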

How the results depend on the processing

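Of 110 named genes with a called difference, the call was lost under at least 1 alternative for 15, and 0 changed direction. Of 16 named genes without a call, 9 gained one in at least 1 alternative, and the differences of 7 changed sign. GSR was at 0.05 with both libraries that stood apart left out, 0.11 with limma at either pseudocount, 0.01 without a filter and 0.01 with the replicate block, and -0.11 to 0.16 without single libraries. FTH1 was at -0.01 with the stricter filter, -0.06 with upper quartile scaling and -0.00 with the replicate block, and -0.11 to 0.12 without single libraries. AIFM2 was at -0.01 with upper quartile scaling and -0.11 to 0.40 without single libraries. Without single libraries GCLM ran from -0.23 to 0.17, TFRC from -0.05 to 0.66 and HMOX1 from -0.07 to 0.92. NR3C2, at 1.21 in edgeR, was at -0.27 with limma on log2(FPKM + 1). The cause of these changes was not tested.

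Leaving out each library in turn, the difference was called in 2127 (without KDC replicate 3) to 3785 genes (without KD replicate 3). Opposite calls ran from 197 (without OE replicate 3) to 784 (without KD replicate 3), calls in the overexpression arm only from 374 (without OE replicate 3) to 1219 (without OEC replicate 1), in the knockdown arm only from 703 (without KDC replicate 3) to 1370 (without KD replicate 2) and in the same direction from 65 (without OE replicate 3) to 529 (without KD replicate 2). Without both OEC replicate 1 and KD replicate 2 the counts were 4590 in the difference, 1026 opposite, 1547 in the overexpression arm only and 874 in the same direction. DESeq2 called 759 opposite and 371 in the same direction, and with assembled rows added 303 were in the same direction. The rising share of opposite genes was 55.1%, 69.0% with limma on log2(FPKM + 1), 68.9% with log2(FPKM + 0.1) and 47.7% with upper quartile scaling. Same-numbered libraries had correlations of their deviations from group means between -0.184 and 0.197, and 6 of 12 libraries correlated best with one of their own number, so the numbers were not taken as pairs. The replicate block gave 2770 genes in the difference, kept 371 of the 490 opposite genes, and left 152 in the same direction. A level of 3 counts corresponds to 0.153 to 0.234 CPM in a library, and values near it rest on few reads.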
